A study of Mus musculus with 94 samples.

Results

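The calmodulin-dependent kinases were examined in the brains of wild-type (wt) and Mgmt-/- mice after methylazoxymethanol (MAM) or vehicle. The members were Camk1, Camk1d, Camk1g, Camk2a, Camk2b, Camk2d, Camk2g, Camk4, Camkk1 and Camkk2, and every probe set whose platform annotation named 1 of these genes alone was taken, each on its own. There were 31 such probe sets among 45101, and they named 9 of the 10 genes: 2 for Camk1, 3 for Camk1d, 1 for Camk1g, 6 for Camk2a, 1 for Camk2b, 7 for Camk2d, 2 for Camk2g, 5 for Camk4 and 4 for Camkk2. Camkk1 was named by none and is not analysed here. All animals were male C57BL6 mice, 11 weeks old; Mgmt-/- mice lack O6-methylguanine-DNA methyltransferase, the enzyme that removes methyl groups from guanine in DNA. MAM, the aglycone of the cycad toxin cycasin, methylates DNA and was given as a single intraperitoneal dose, and half-brains were taken at 6, 24, 48 or 168 hr. The 16 groups of genotype, agent and time held 6 animals each, except 5 in wt vehicle at 48 hr, wt MAM at 168 hr and Mgmt-/- MAM at 168 hr.

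Calmodulin-dependent kinases are switched on by calmodulin that has bound calcium. CaMKII (Camk2a, Camk2b, Camk2d and Camk2g) forms large holoenzymes, holds its activity by autophosphorylation and is known in brain for its part in synaptic plasticity. CaMKI (Camk1, Camk1d and Camk1g) and CaMKIV (Camk4) act as a cascade, being phosphorylated by the CaM kinase kinases (Camkk1 and Camkk2). CaMKIV sits largely in the nucleus and phosphorylates CREB, and CaMKI is known for axon and dendrite growth.

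Values are robust multi-array average (RMA) values on a log2 scale, 1 for each probe set and array. Values of different probe sets were not set against each other. Fewer cells of a type and less RNA per cell cannot be told apart in such tissue. 1 array of the Mgmt-/- MAM group at 168 hr was left out: the median of 11 liver genes was 13.67 on it and at most 6.70 on any other array. Mgmt itself, on 1421309_at, ran from 5.494 over a median of 5.73 to 6.207 on the 46 wt arrays and from 5.085 over 5.697 to 6.448 on the 47 Mgmt-/- arrays, so this probe set did not separate the genotypes; the place of its probes relative to the deleted part is not stated, and it gives no check of the labels. Within each genotype the numbers of the animals make 2 sets, taken here as the 2 laboratories of the study, and probe sets with interactions of genotype or MAM with the number set (joint p of 0.15 or less) were set aside by what is called the laboratory filter. Of the 31 kinase probe sets, 12, 12, 21 and 20 were kept at 6, 24, 48 and 168 hr, which is 65 of 124 combinations of probe set and time (38.7, 38.7, 67.7 and 64.5%, against 39.3, 47.9, 78.8 and 71% of all probe sets). A probe set was called where the Benjamini-Hochberg adjusted p of the limma test was below 0.05 and the fold change was above 1.3. The RNA 3′/5′ index, which averages over the control transcripts Gapdh and beta-actin how far their 3′ probe sets read above their 5′ ones on the log2 scale, grows as RNA is degraded or copied less far. It was entered as a covariate in a further fit, and a kinase call that it ended is given with its value there. In some comparisons the index itself did not overlap between the groups. In Mgmt-/- brain at 6 hr it ran from 0.417 to 0.46 in vehicle and from 0.57 to 0.75 in MAM animals. A call lost in such a comparison does not tell an effect of the index from one of the group. Calls of other genes are given without this covariate.

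For orientation, the bases just before the start sites of Camk1d and Camk2d are given, since both carried calls after MAM. Camk1d has 2 annotated starts. Each line holds the 100 bases before a RefSeq start (GRCm38.p6), 5′ to 3′ on the strand of the gene, with every CG dinucleotide in capitals.
Camk1d, first start, chr2:5714763-5714862, minus strand: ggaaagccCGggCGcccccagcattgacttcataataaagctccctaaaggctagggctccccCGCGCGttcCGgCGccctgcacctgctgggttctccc
Camk1d, other start, chr2:5676047-5676146, minus strand: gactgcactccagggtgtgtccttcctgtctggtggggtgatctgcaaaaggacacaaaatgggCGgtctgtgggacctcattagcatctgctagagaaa
Camk2d, chr3:126596851-126596950, plus strand: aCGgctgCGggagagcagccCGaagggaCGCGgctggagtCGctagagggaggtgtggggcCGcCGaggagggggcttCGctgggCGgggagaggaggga
The first Camk1d start had 22 CG dinucleotides in the 250 bases before it, the other had 5 and Camk2d had 23, against a median of 6 over 32851 windows. The short CREB motif TGACG (either strand) was searched in windows of 250 bases before and 50 after each start, and it was found in 2 of the 8 windows of the 7 member genes that had one printable here, those of Camk1 and Camkk1, and in 20.8% of all windows. The palindromic CREB motif TGACGTCA, which holds the short motif on both strands, was found in 0 of the 8 and in 1.79% of all. Which start the probes of a probe set report on could not be read from the sources used here.

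Of the 31 kinase probe sets, 6 had group means that spanned more than 1 log2. Over the 16 groups the means of a probe set spanned from 0.16 (Camk2d 1444031_at, 3.41 to 3.57) to 1.67 log2 (Camk4 1441974_at, 6.34 to 8.01), while the SD within groups ran from 0.11 (Camk2g 1423941_at) to 0.54 (Camk2a 1452453_a_at). Camk2a 1457311_at, for the alpha subunit of forebrain CaMKII, had group means of 10.97 to 11.69. Camk2b 1448676_at, for the beta subunit that binds actin, stayed between 9.98 and 10.29. Camk2g 1423941_at lay between 10.54 and 10.76, Camk4 1439843_at between 10.27 and 10.59, and Camkk2 1424474_a_at between 10.25 and 10.62. In each of the 6 with a span over 1 log2 (Camk1d 1426389_at, Camk2a 1442707_at and 1452453_a_at, Camk2d 1427763_a_at, Camk4 1421941_at and 1441974_at) the lowest group was a Mgmt-/- MAM group, at 6, 24 or 48 hr. Such spans were not counted over all probe sets, so this is a description. On Camk4 1421941_at the number sets differed at 24 hr. In set 1 the MAM animals had 4.35 to 4.86 and the vehicle animals 5.32 to 5.75. In set 2 they had 5.48 to 5.83 and 4.84 to 5.37.

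MAM lowered single probe sets of 3 kinases in Mgmt-/- brain, and no kinase probe set passed the test in wt brain. In Mgmt-/- brain, Camk4 1441974_at fell 2.08-fold and Camk2d 1427763_a_at 1.45-fold at 6 hr, and Camk1d 1426389_at fell 2.40-fold at 48 hr. These were 3 of the 65 combinations kept (4.62%), all lower, at 2, 0, 1 and 0 calls by time. Among all probe sets the share called was 0.691% over the 4 times (0.519% lower), and 1.68, 0.615, 0.45 and 0.462% at 6, 24, 48 and 168 hr. The members were chosen with earlier results of these data known, so these shares, here and below, are descriptions and not a test. In wt brain 0 kinase probe sets were called and 0% of all probe sets, by limma with or without the laboratory filter, while 0, 3, 7 and 2 of the 31 had an unadjusted p below 0.05. The median MAM effect over the 31 probe sets was -0.02, -0.05, -0.04 and 0.01 log2 in Mgmt-/- brain, beside 0.01, 0.02, 0.00 and -0.01 over all probe sets.

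**Figure D1:**
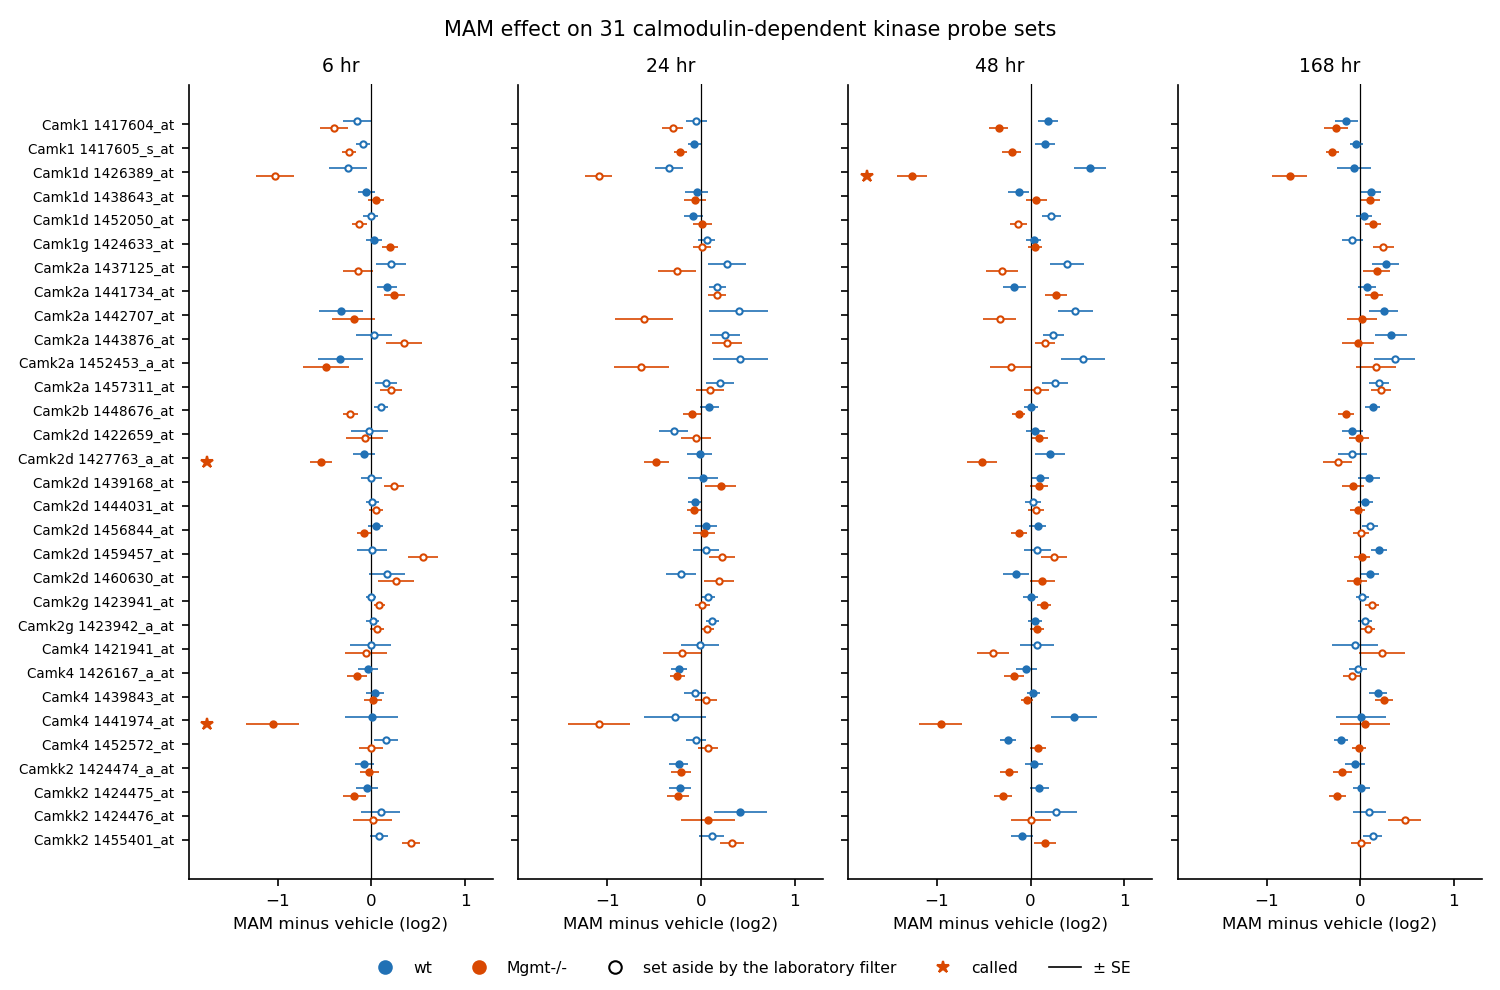
MAM minus vehicle (log2, x axis) for each of the 31 kinase probe sets (rows) in wt (blue) and Mgmt-/- brain (orange), with bars of 1 SE and 1 panel per time; open points were set aside by the laboratory filter and a star at the left edge marks a call. The stars mark Camk1d 1426389_at (-1.27 at 48 hr), Camk4 1441974_at (-1.06 at 6 hr) and Camk2d 1427763_a_at (-0.54 at 6 hr) in Mgmt-/- brain; effects of like or larger size that were not called include Camk1d 1426389_at at 24 hr (-1.09), Camk4 1441974_at at 24 hr (-1.09) and Camk2a 1452453_a_at at 24 hr (-0.64).

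Camk1d, a CaMKI kinase found in neurons and granulocytes, had the lowest adjusted p and the largest fold of these. At 48 hr, probe set 1426389_at ran from 8.05 over a median of 8.25 to 8.52 in Mgmt-/- vehicle animals and from 6.52 over 7.05 to 7.48 in Mgmt-/- MAM animals. Every MAM animal lay below every vehicle animal. The difference was -1.27 log2 (SE 0.164, adjusted p = 0.000724), at -1.37 and -1.17 in the 2 number sets. In wt brain at 48 hr the 5 vehicle values were 6.85, 7.18, 7.69, 7.95 and 8.08, and the MAM values ran from 7.75 over 8.23 to 8.43. The wt groups overlapped, and the wt difference went the other way without passing the test (0.63 log2, SE 0.173, adjusted p = 0.166). The genotype by MAM interaction, that is the Mgmt-/- effect minus the wt effect, was -1.90 (SE 0.238, adjusted p = 0.000221). The Mgmt-/- call and the interaction call were each lost in 1 of the 23 fits that left out 1 array, where the filter set the probe set aside.

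The same probe set was also low in the MAM animals at the other times. At 6 hr the Mgmt-/- vehicle values ran from 7.95 over 8.37 to 8.53 and the MAM values from 6.61 over 7.28 to 7.92, with no overlap. At 24 hr they ran from 8.06 over 8.33 to 8.51 and from 6.64 over 7.31 to 7.51, again with no overlap. Both differences, -1.03 and -1.09, were set aside by the laboratory filter (number sets at -0.89 and -1.17 at 6 hr, -1.34 and -0.84 at 24 hr). Without the filter their adjusted p values were 0.00712 and 0.000235. At 168 hr the 6 vehicle animals ran from 6.86 over 8.14 to 8.46 and the 5 MAM animals had 6.90, 6.93, 7.12, 7.17 and 7.65. The 168 hr groups overlapped, 2 of the vehicle animals (6.86 and 7.08) lying below the highest MAM animal, and the difference of -0.75 (SE 0.186) had an adjusted p of 0.0654. Ordered by mean, the 4 Mgmt-/- MAM groups (6.996, 7.15, 7.20 and 7.29) stood below the other 12, which ran from 7.55 to 8.32, although no neighbours in that order were farther apart than the pooled SD of 0.36.

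**Figure D2:**
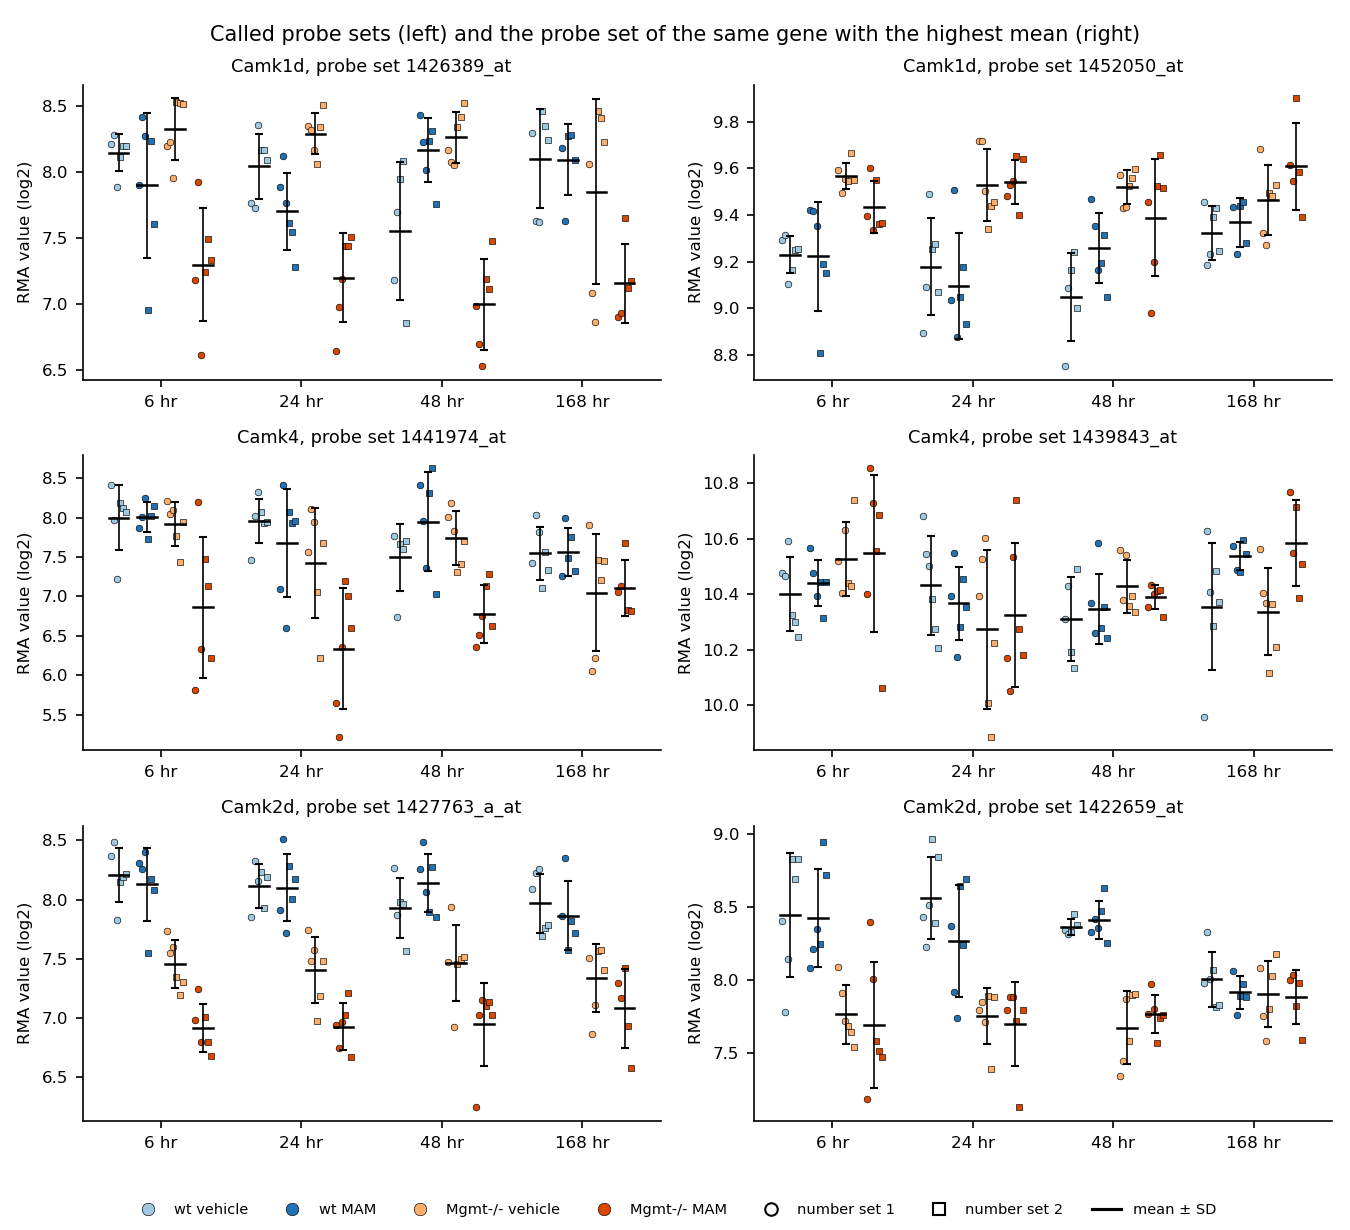
RMA values (log2, y axis) of each animal by time for the probe sets called after MAM in Mgmt-/- brain (left) and for the probe set of the same gene with the highest mean (right); circles and squares are number sets 1 and 2, bars are mean and SD. The Mgmt-/- MAM groups of Camk1d 1426389_at had means of 6.996 to 7.29, below every other group, while those of Camk1d 1452050_at were at 9.39 to 9.61, within the range of the other groups or just above it.

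Camk4, the nuclear CaMKIV, fell on 1441974_at. At 6 hr the Mgmt-/- vehicle values ran from 7.44 over 8.0 to 8.21 and the MAM values from 5.81 over 6.74 to 8.20. The groups overlapped, 2 MAM animals (7.47 and 8.20) lying within the vehicle range. The difference was -1.06 (SE 0.283, adjusted p = 0.0336), at -1.34 and -0.775 in the number sets, and the call was lost in 9 of the 24 fits that left out 1 array and with the RNA index as a covariate (-0.84, adjusted p = 0.566). At 24 hr the difference was -1.09 (SE 0.33), at -2.13 in number set 1 and -0.05 in set 2, and the probe set was set aside. At 48 hr the vehicle animals ran from 7.31 over 7.77 to 8.18 and the MAM animals from 6.36 over 6.69 to 7.29, with no overlap, at -0.96 (SE 0.233, adjusted p = 0.0626). The wt difference at 48 hr was 0.46 (SE 0.245), and the interaction of -1.42 (SE 0.338, adjusted p = 0.041) was called, a call lost in 17 of 23 fits with 1 array left out and with the index as a covariate (-1.69, adjusted p = 0.0672). At 168 hr the difference was 0.05 (SE 0.268).

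Camk2d, the delta subunit of CaMKII, fell on 1427763_a_at. At 6 hr it ran from 7.20 over 7.45 to 7.74 in Mgmt-/- vehicle animals and from 6.68 over 6.89 to 7.24 after MAM. The groups overlapped by less than 0.05 log2. The difference was -0.54 (SE 0.114, adjusted p = 0.00819), at -0.62 and -0.45 in the number sets, and none of the 24 fits without 1 array lost it. With the RNA index as a covariate the difference was -0.23 (adjusted p = 0.68) and the call was lost. The index did not overlap between these groups, so the loss does not tell its effect from that of MAM. At 24 and 48 hr the differences were -0.48 (SE 0.132, adjusted p = 0.0912) and -0.52 (SE 0.157, adjusted p = 0.2), and at 168 hr -0.24 (SE 0.157), set aside by the filter. The wt differences were -0.08, -0.01, 0.21 and -0.09.

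The interaction counts were 0, 0, 2 and 0 of the probe sets kept, both lower, Camk1d 1426389_at and Camk4 1441974_at at 48 hr (3.08% of 65). Among all probe sets the share was 0.325% (0.27% lower) over the 4 times and 0.0677, 0, 0.886 and 0.0625% at the single times. By limma without the filter the count was also 2 against a share of 0.29%, and 6, 4, 12 and 4 of the 31 had an unadjusted p below 0.05.

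No other probe set of these 3 genes was called, with or without the filter. Camk1d 1452050_at differed by -0.13, 0.01, -0.13 and 0.14 log2 between MAM and vehicle in Mgmt-/- brain at 6, 24, 48 and 168 hr. Camk4 1439843_at differed by 0.02, 0.05, -0.04 and 0.25, and Camk2d 1422659_at by -0.07, -0.05, 0.09 and -0.01.

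None of the other members was called after MAM in Mgmt-/- brain. Both Camk1 probe sets were lower at every time, from -0.20 to -0.40, with the lowest adjusted p at 0.0535 (1417605_s_at at 168 hr, -0.30, SE 0.071). Camk2b 1448676_at lay between -0.22 and -0.10. Camk2g stayed within 0.01 to 0.14, and Camk1g 1424633_at within 0.01 to 0.25. The 6 Camk2a probe sets ran from -0.64 (1452453_a_at at 24 hr, SE 0.294) to 0.35 (1443876_at at 6 hr, SE 0.193). Camkk2, the kinase kinase that also activates AMPK, had 4 probe sets that went different ways. Its 1455401_at ran from 9.04 over 9.55 to 9.74 in vehicle and from 9.67 over 9.86 to 10.015 in MAM animals at 6 hr, 1 vehicle animal lying above the lowest MAM animal, and differed by 0.43 (SE 0.0945). That result was set aside by the filter (number sets at 0.17 and 0.68) and had an adjusted p of 0.0142 without the filter. Without the filter 6 of 124 combinations were called in Mgmt-/- brain, against 0.748% of all, and in addition to the 3 above these were Camk1d 1426389_at at 6 and 24 hr and Camkk2 1455401_at at 6 hr.

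When the MAM effect was averaged over the 4 times in a single fit of 93 arrays, the same 3 probe sets were called in Mgmt-/- brain. This fit used the same arrays without the laboratory filter. It takes in values set aside above and is not a second result on these probe sets. Camk1d 1426389_at was at -1.04 (SE 0.0942, adjusted p = 1.04e-13), Camk4 1441974_at at -0.76 (SE 0.153, adjusted p = 0.000153) and Camk2d 1427763_a_at at -0.44 (SE 0.0746, adjusted p = 6.35e-06). These were 3 of 31 kinase probe sets and 1.08% of all (0.898% lower). In wt brain 0 of 31 and 0% of all were called. Below the fold threshold but under an adjusted p of 0.05 were the 2 Camk1 probe sets (-0.32, adjusted p = 0.00011, and -0.24, adjusted p = 3.31e-06), Camk2b 1448676_at (-0.15, adjusted p = 0.00619), Camk4 1426167_a_at (-0.17, adjusted p = 0.0161), Camkk2 1424475_at (-0.24, adjusted p = 0.00141) and Camkk2 1424474_a_at (-0.16, adjusted p = 0.0266). In the other direction lay Camk2a 1441734_at (0.21, adjusted p = 0.00394), Camk2d 1459457_at (0.26, adjusted p = 0.00731) and Camkk2 1455401_at (0.23, adjusted p = 0.00368).

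Some kinase probe sets differed between the genotypes already in vehicle animals. The RNA 3′/5′ index differed there too, with group means of 0.31 to 0.37 in wt and 0.42 to 0.55 in Mgmt-/- vehicle animals. Camk2d was lower in Mgmt-/- brain on both 1422659_at and 1427763_a_at, Camk2a 1442707_at was lower, and Camk1d 1426389_at was higher at 48 hr. There were 6 calls among the 65 combinations kept (9.23%), 5 lower and 1 higher, at 2, 1, 2 and 1 by time. Among all probe sets the share was 2.4% (1.69% lower) over the 4 times and 3.4, 4.08, 2.98 and 0.0812% at the single times. Without the filter 15 of 124 combinations were called, against 3.48%.

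For Camk2d 1427763_a_at at 6 hr, wt vehicle animals ran from 7.83 over 8.20 to 8.49 and Mgmt-/- vehicle animals from 7.20 over 7.45 to 7.74, with no overlap, a difference of -0.75 (SE 0.114, adjusted p = 0.00014). At 24 hr the difference was -0.71 (SE 0.132, adjusted p = 0.00129), again with no overlap. For Camk2d 1422659_at at 48 hr the 5 wt vehicle values were 8.31, 8.32, 8.34, 8.37 and 8.45, and the Mgmt-/- vehicle values ran from 7.34 over 7.72 to 7.90. All Mgmt-/- animals lay below all wt animals (-0.68, SE 0.0969, adjusted p = 0.000135). With the index as a covariate this probe set was at -0.83 and was set aside by the filter. At 168 hr the means of 1422659_at were 8.002 in wt and 7.90 in Mgmt-/- vehicle animals (-0.10, SE 0.104, adjusted p = 0.799). Camk1d 1426389_at at 48 hr was higher in Mgmt-/- vehicle animals by 0.73 (SE 0.173, adjusted p = 0.0139), where the wt values given above reached 8.08 and the Mgmt-/- values began at 8.05.

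Over all groups Camk2d 1427763_a_at stood at 3 levels. The 8 wt groups had means of 7.87 to 8.21, the 4 Mgmt-/- vehicle groups 7.34 to 7.47 and the 4 Mgmt-/- MAM groups 6.92 to 7.08. The gap between the wt and the Mgmt-/- vehicle groups was the single step in that order larger than the pooled SD of 0.27.

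Camk2a 1442707_at at 168 hr ran from 8.37 over 8.55 to 8.95 in wt vehicle animals and from 7.32 over 7.69 to 8.04 in Mgmt-/- vehicle animals. The groups did not overlap (-0.92, SE 0.151, adjusted p = 0.00901). At 6 hr the difference was -0.77 (SE 0.233, adjusted p = 0.0469), a call that 17 of 24 fits without 1 array lost. With the RNA index as a covariate both calls were lost, at -0.60 (adjusted p = 0.305) at 168 hr and -0.39 (adjusted p = 0.449) at 6 hr. Another Camk2a probe set went the other way: 1437125_at, with means of 9.20 in wt and 9.96 in Mgmt-/- vehicle animals at 6 hr (0.76, SE 0.159, no overlap), was set aside by the filter (number sets at 0.46 and 1.06) and had an adjusted p of 0.00391 without it.

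**Figure D3:**
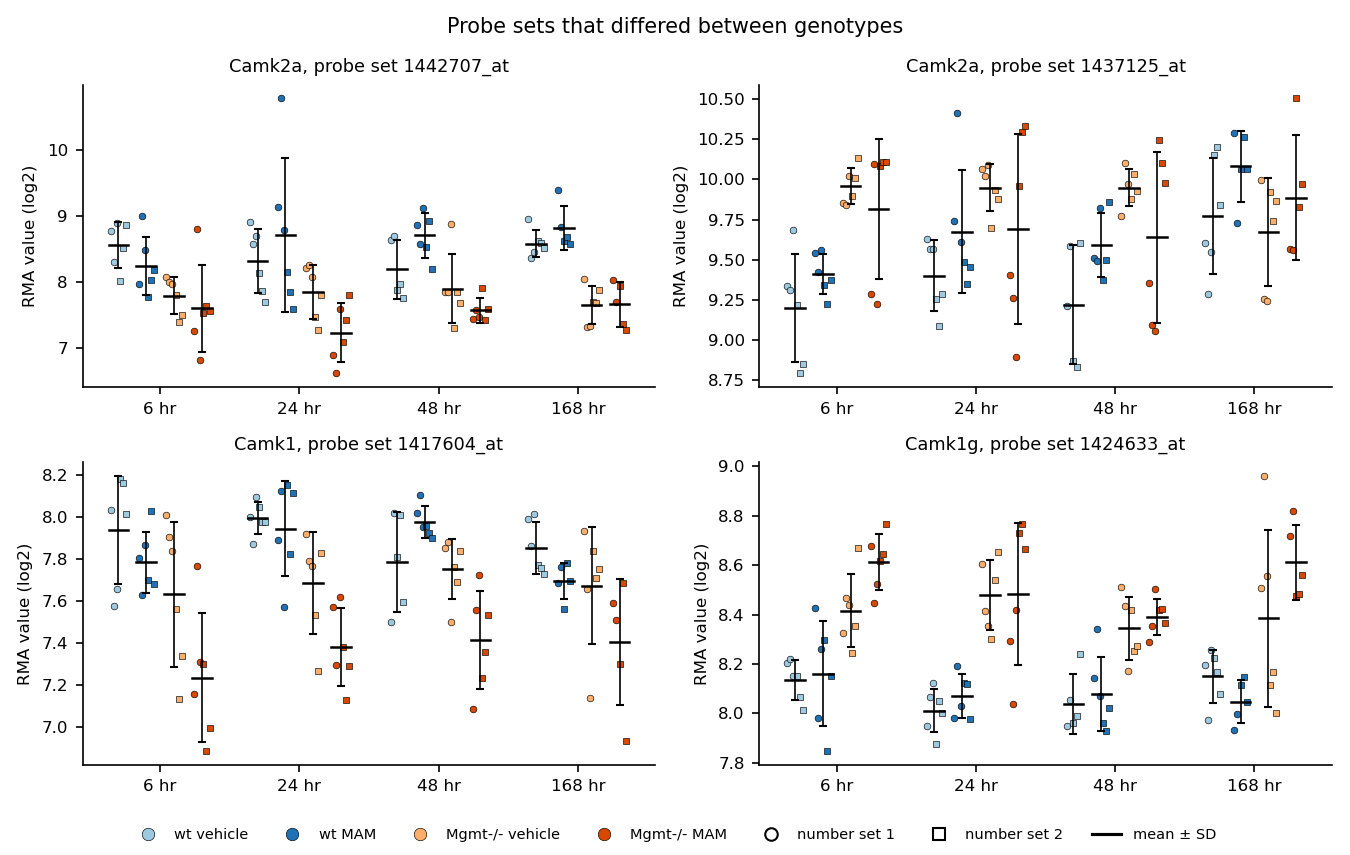
RMA values (log2, y axis) of each animal by time for 4 probe sets that differed between genotypes; circles and squares are number sets 1 and 2, bars are mean and SD. Camk2a 1442707_at was called lower in Mgmt-/- animals at 6 and 168 hr with vehicle and at 168 hr after MAM. Camk1 1417604_at was called lower only after MAM at 48 hr, and Camk1g 1424633_at was called higher only after MAM at 6 hr. Without a call, Camk1g was also higher in Mgmt-/- than in wt vehicle animals at 24 hr (8.303 to 8.654 against 7.878 to 8.125). Camk2a 1437125_at, of the same gene as the first, was higher in Mgmt-/- vehicle animals at 6 hr (9.96 against 9.20).

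Between the genotypes after MAM there were 15 calls among the 65 combinations kept (23.1%), 13 lower and 2 higher in Mgmt-/- brain, at 4, 2, 6 and 3 by time, in 7 genes. Among all probe sets the share was 5.75% (4.1% lower) over the 4 times and 7.12, 5.14, 9.31 and 1.46% at the single times. Without the filter 34 of 124 combinations were called, against 6.57%. This comparison uses the same MAM arrays as the MAM comparison, so its values are given beside it and not as a second result on the fall of Camk1d, Camk2d and Camk4.

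Camk2d 1427763_a_at was lower at 6, 24 and 48 hr, by -1.21, -1.17 and -1.19 log2. At 6 hr wt MAM animals ran from 7.55 over 8.21 to 8.41 and Mgmt-/- MAM animals from 6.68 over 6.89 to 7.24, with no overlap (SE 0.114, adjusted p = 7.88e-08). Camk2d 1422659_at was lower at 48 hr (-0.64, SE 0.0922, adjusted p = 2.31e-05). Camk4 1441974_at was lower at 6 and 48 hr (-1.14 and -1.17), and Camk4 1426167_a_at at 6 hr (-0.42, SE 0.107, adjusted p = 0.00807). Camk1d 1426389_at was lower at 48 and 168 hr (-1.17 and -0.94), while Camk1d 1452050_at was higher at 24 hr (0.44, SE 0.102, adjusted p = 0.00563). Several of these calls were lost with the RNA index as a covariate. At 48 hr Camk2d 1427763_a_at was then at -0.90 (adjusted p = 0.0883) and Camk1d 1426389_at at -0.96 (adjusted p = 0.0889), while Camk2d 1422659_at (-0.96) was set aside. At 6 hr Camk4 1441974_at was at -0.87 (adjusted p = 0.483) and Camk4 1426167_a_at at 0.00738, set aside, and Camk1d 1452050_at at 24 hr was at 0.26 (adjusted p = 0.509).

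Camk1, the founding CaMKI, was lower on both of its probe sets at 48 hr. On 1417604_at wt MAM animals ran from 7.90 over 7.95 to 8.11 and Mgmt-/- MAM animals from 7.08 over 7.45 to 7.72, with no overlap (-0.56, SE 0.102, adjusted p = 0.000397). On 1417605_s_at, whose suffix marks probes that other transcripts can share, the difference was -0.40 (SE 0.1, adjusted p = 0.00641). Both calls were lost with the RNA index as a covariate, at -0.31 (adjusted p = 0.442) and -0.25 (adjusted p = 0.569). Camk1g, a membrane-anchored CaMKI, was higher at 6 hr, where 1424633_at ran from 7.85 over 8.21 to 8.43 in wt MAM and from 8.45 over 8.63 to 8.77 in Mgmt-/- MAM animals (0.45, SE 0.0875, adjusted p = 0.000821), also with no overlap. With the index as a covariate it was at 0.32 and was set aside by the filter. The Camk1g difference was not confined to MAM animals. At 24 hr, without a call, the values ran from 7.878 to 8.125 in wt vehicle and from 8.303 to 8.654 in Mgmt-/- vehicle animals. At 168 hr Camk2a 1442707_at was lower: the 5 wt MAM values were 8.57, 8.63, 8.68, 8.83 and 9.39, and the 5 Mgmt-/- MAM values were 7.27, 7.37, 7.70, 7.94 and 8.03 (-1.16, SE 0.166, adjusted p = 0.000481). Camkk2 1424475_at was lower at 168 hr as well, with 8.61, 8.77, 8.82, 8.88 and 8.93 in wt MAM and 8.05, 8.37, 8.38, 8.48 and 8.56 in Mgmt-/- MAM animals (-0.44, SE 0.0961, adjusted p = 0.0149). Neither pair of groups overlapped. Camk2b and Camk2g carried no call in any comparison. Camk2g 1423942_a_at was nevertheless higher in Mgmt-/- than wt vehicle animals at 48 hr by 0.35 (SE 0.0754, adjusted p = 0.00768), below the fold threshold.

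Probe sets of the same gene followed each other only in part. After subtraction of the mean of each genotype and number set, Pearson r over the 93 arrays was 0.688 between the 2 Camk1 probe sets and 0.447 between those of Camk2g. Among 15 pairs of Camk2a probe sets it ran from -0.185 to 0.85, the highest being 1442707_at with 1452453_a_at. Among 21 pairs for Camk2d it ran from -0.234 to 0.498, and 1422659_at and 1427763_a_at had 0.269. Camk4 1441974_at went with 1421941_at (0.711) more than with 1439843_at (0.376), and Camk1d 1426389_at with 1452050_at at 0.525. These are descriptions over arrays that share groups and RNA quality.

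The RNA 3′/5′ index also differed between the groups. Its means were 0.31 to 0.37 in wt vehicle, 0.33 to 0.44 in wt MAM, 0.42 to 0.55 in Mgmt-/- vehicle and 0.52 to 0.63 in Mgmt-/- MAM animals. MAM minus vehicle in Mgmt-/- brain was 0.20, 0.15, 0.12 and -0.03 at 6, 24, 48 and 168 hr (exact two-sided permutation within number sets, p = 0.005, 0.005, 0.01 and 0.725, the smallest possible being 0.005 at the first 3 times and 0.01 at 168 hr), and in wt brain 0.06, 0.06, 0.00 and 0.06 (p = 0.125, 0.02, 0.9 and 0.02, the smallest possible being 0.01 at 48 and 168 hr). In Mgmt-/- brain this difference lay in beta-actin, where it was 0.378, 0.298 and 0.222 at 6, 24 and 48 hr, and from Gapdh alone it was 0.0199, -0.00703 and 0.0127. Adjusted for genotype and number set, r with the index over 93 arrays was -0.556 for Camk1d 1426389_at, -0.556 for Camk2d 1427763_a_at, -0.458 for Camk4 1441974_at, -0.48 for Camk1 1417604_at and 0.469 for Camkk2 1455401_at, where the 5th and 95th percentiles of all probe sets were -0.384 and 0.317. Camk1d 1452050_at (-0.113), Camk4 1439843_at (0.149) and Camk2d 1422659_at (-0.142) were inside that range. With the index as a covariate, Camk1d 1426389_at kept its call in Mgmt-/- brain at 48 hr (-1.15, adjusted p = 0.0311) and in the interaction (-1.79, adjusted p = 0.00345), while the 6 hr calls of Camk2d and Camk4 were lost, as given above. The averaged effects were then -0.76, -0.66 and -0.29 for Camk1d, Camk4 and Camk2d, of which Camk2d no longer passed the fold threshold. At 6 hr the index did not overlap between Mgmt-/- vehicle and MAM animals. Nor did it overlap at 6 hr between wt and Mgmt-/- vehicle animals (0.269 to 0.336 against 0.417 to 0.46). Calls lost there do not tell index from group. The part of RNA quality in these results was not tested further.

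**Figure D4:**
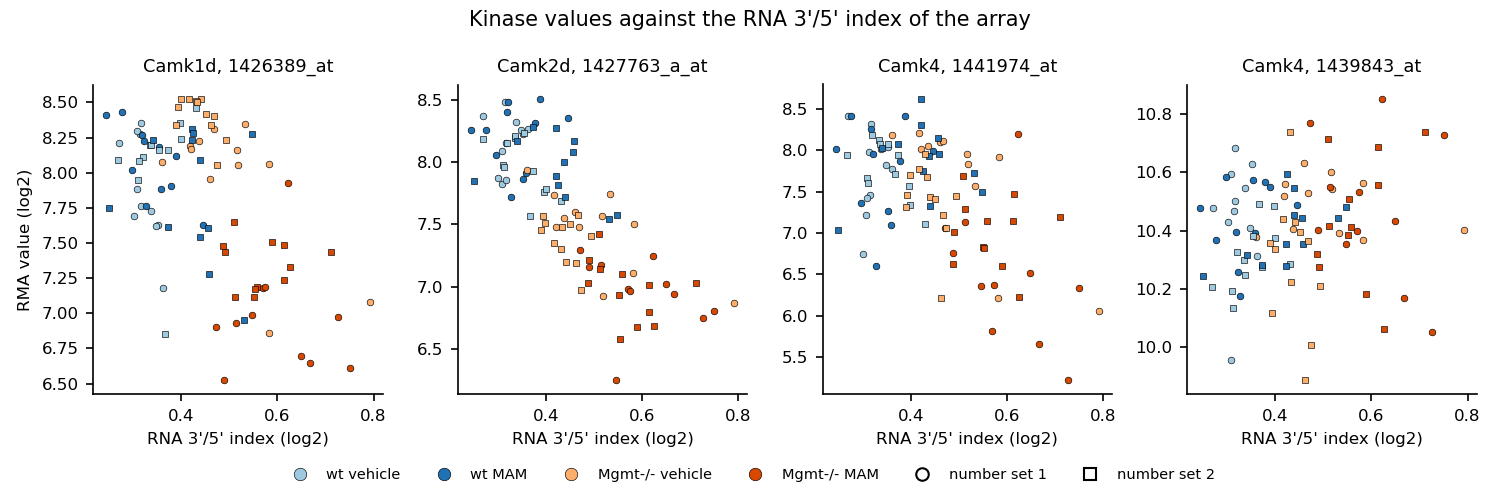
RMA value (log2, y axis) of 4 kinase probe sets against the RNA 3′/5′ index (log2, x axis), 1 point per array, coloured by genotype and agent, with circles and squares for number sets 1 and 2. The 3 probe sets called after MAM were lower on arrays with a higher index (r of -0.556, -0.556 and -0.458), and Camk4 1439843_at was not (0.149).

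Markers of the cell types of brain, and of liver and blood, were followed in the same fits. In Mgmt-/- brain the share of all probe sets called after MAM was 1.68, 0.615, 0.45 and 0.462% at the 4 times. Forebrain excitatory neuron markers had a mean level of 9.003 to 9.259 on the wt vehicle arrays at 6 hr. After MAM in Mgmt-/- brain, the median effect over the 6 of these markers measured was -0.01, 0.03, 0.06 and 0.09 at the 4 times, and over 8 cerebellar granule and Purkinje cell markers -0.10, -0.02, -0.14 and 0.01, with 0 called in either list. The inhibitory neuron, striatal neuron and choroid plexus lists had medians between -0.12 and 0.12 and 0 called. Over 6 microglia markers the median was -0.02, -0.18, -0.22 and -0.21, and over 6 endothelium markers -0.09, -0.08, -0.14 and -0.22, with 0 called in either. At 168 hr 1 of 5 oligodendrocyte markers (median -0.30) and 1 of 6 astrocyte markers (median -0.07) were lower by the test, as was 1 of 2 erythroid markers at 48 and 168 hr (medians -0.34 and -0.27). The 11 liver genes were higher after MAM in Mgmt-/- brain by a median of 0.65 at 6 hr, with 3 called, and 0.48 at 24 hr, with 1 called, their mean level on an array being 4.976 to 6.725 in Mgmt-/- MAM and 4.458 to 5.318 in Mgmt-/- vehicle animals at 6 hr.

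Between the genotypes the medians of several marker lists also differed from 0, with few markers called. Among all probe sets the share called was 3.4, 4.08, 2.98 and 0.0812% in vehicle animals at the 4 times. After MAM it was 7.12, 5.14, 9.31 and 1.46%. A count of 1 or 2 in lists this short is not read as a result. The forebrain excitatory list had medians of -0.145, -0.20, -0.08 and -0.07 in vehicle animals and -0.25, -0.28, -0.15 and -0.01 after MAM, with 1 of 6 lower by the test at 24 hr in both. The cerebellar list had -0.10, -0.31, -0.06 and -0.03 in vehicle animals, with 1 of 8 lower at 24 hr, and -0.23, -0.19, -0.23 and -0.13 after MAM, with 1 lower at 24 and at 48 hr. Microglia markers lay between -0.20 and 0.00 in vehicle animals with 0 called, and at -0.06, -0.13, -0.25 and -0.38 after MAM with 2 of 6 lower at 48 hr. Of the endothelium list 1 marker was lower after MAM at 24, 48 and 168 hr, and of the oligodendrocyte list 1 at 48 hr in vehicle animals and 1 at 48 and 168 hr after MAM. The liver list had -0.49 and -0.28 in vehicle animals at 6 and 24 hr, with 2 lower at 24 hr, and 0.43 at both times after MAM, with 2 higher at each. The part of these cells and RNAs in the kinase values was not tested.

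The genes around the kinases were taken from a list in 8 roles, of which 65 genes were named by 168 probe sets; the 3 calmodulin genes had no probe set naming 1 of them alone. In Mgmt-/- brain MAM lowered 8 of the 361 combinations of probe set and time that were kept (2.22%, against 0.519% lower among all probe sets), in 6 genes, and raised 0, and in wt brain 0 were called. Calcineurin and its regulators held Cabin1, a calcineurin inhibitor, on 1437794_at at 6, 24 and 48 hr (-0.63, -0.60 and -0.65, adjusted p = 0.00314, 0.000807 and 0.0046). Calcium transport held Atp2b2, a plasma membrane calcium pump, on 1420402_at at 48 hr (-1.05, SE 0.165, adjusted p = 0.00186) and Atp2a2, the endoplasmic reticulum pump, on 1427251_at at 168 hr (-0.42, adjusted p = 0.0475). Of the CREB group Crem 1449037_at was lower at 6 hr (-0.60, adjusted p = 0.00964), of the activity-regulated transcripts Bdnf 1422168_a_at (-0.65, adjusted p = 0.0111), and of the CaMK relatives Dclk1 1423125_at (-0.53, adjusted p = 0.0082). The calls of this list, here and below, are given without the RNA index as a covariate. The list was chosen with earlier results of these data known. Its shares beside those of all probe sets, here and below, are descriptions and not a test.

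The other large effects in the list did not pass. Crebbp 1459804_at, for a CREB coactivator, was at -0.84 at 6 hr, where it was set aside, and at -0.64 at 48 hr (adjusted p = 0.106), Grin2b 1442370_at, for an NMDA receptor subunit that CaMKII binds, at -0.66 at 24 hr (adjusted p = 0.0602), and Dclk1 1451917_a_at at -0.63 at 48 hr (adjusted p = 0.0563). Set aside by the filter were Dclk1 1424270_at at 168 hr (-0.58, SE 0.187), Fos 1423100_at at 48 hr (-1.02, SE 0.371), Dlg4 1419581_at at 168 hr (0.55, SE 0.277), Adcy1 1445359_at at 48 hr (-0.52, SE 0.174) and Adcy8 1418754_at at 168 hr (-0.39, SE 0.0751, adjusted p = 0.0112 without the filter). In the interaction 2 of 361 were called (0.554%, against 0.325% of all probe sets, and 0.886% of all at 48 hr), a share near that of all probe sets, both lower at 48 hr: Atp2b2 1420402_at (-1.56, SE 0.24, adjusted p = 0.00152) and Cabin1 1437794_at (-0.69, SE 0.166, adjusted p = 0.0422).

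Between genotypes the list had 31 calls in vehicle animals (10 higher and 21 lower, 18 genes, 8.59%, against 2.4% of all probe sets) and 50 after MAM (14 higher and 36 lower, 22 genes, 13.9%, against 5.75%). Lower in Mgmt-/- vehicle animals were Atp2b2, Cacna1b, Grin2b, Gria2, Dclk1, Creb1, Hdac9, Marcks, Akap5, Rcan2 and Ppp3cb, and higher were Dapk1, Cabin1, Mef2a, Cacna1d, Cacna1c, Itpkb, Crebbp and another Dclk1 probe set. Called after MAM but not in vehicle animals were Gap43, Crem, Mef2c, Grin2a, Cacnb4 and Atp2b1, all lower. Shank3, Cacna1a, Atp2a2, Mef2d, Crtc1 and a Creb1 probe set were called higher only after MAM. Of the genes named for vehicle animals, Cacna1b, Ppp3cb, Cabin1, Mef2a, Cacna1d, Itpkb and Crebbp were not called after MAM. Atp2b2 1420403_at was called in vehicle animals at 3 times, with -0.98 at 24 hr, -0.71 at 48 hr and -0.92 at 6 hr (SE 0.0799, adjusted p = 8.83e-08).

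The probe sets of other genes that ran most closely with each kinase were named by Pearson r over the 93 arrays, after subtraction of the mean of each genotype and number set. For Camk1d 1426389_at these were Grm5 1456119_at (0.925), Ankrd12 1440193_at (0.915) and Dnmt3a 1423066_at (0.91). For Camk2d 1427763_a_at they were Ahcyl1 1425576_at (0.864), Tgoln1 1423308_at (0.858) and Atcay 1434467_at (0.842), and for Camk4 1441974_at Zmynd11 1426532_at (0.882), the same Ahcyl1 probe set (0.846) and Syt1 1421990_at (0.839). The arrays share RNA quality and MAM treatment. Camk4 1439843_at ran with Exph5 (0.689), Foxo3 (0.64) and Cbln3 (0.635), and Camk2a 1457311_at with Bcr (0.723), Mapkbp1 (0.711) and Slc1a2 (0.687). Camk2a 1442707_at ran with Mef2a (0.716), Camk2b with Ppp2r2c (0.688), Camk2g with Thap12 (0.698), Camk1 1417604_at with Fra10ac1 (0.801), Camk1g with Arid5b (0.61) and Camkk2 1424475_at with Tcf4 (0.748).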

How the data were processed

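RNA of 94 mice, described in the study as from half-brains, was hybridised to Affymetrix mouse genome arrays. The array left out read high in liver genes. Per the labels and the study's methods, the authors made 1 log2 value for each probe set by RMA with the affy package; no further normalization was applied to the deposited log2 values. Precision is limited by how many arrays a group holds. Array annotation came from GEO's platform table (34958 of 45101 probe sets named 1 gene, 932 several, 9211 none).

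Each time point was fitted with limma 3.58.1 (R 4.3.3; tables handled with version 1.17.8 of the data.table package); the terms were genotype, treatment, their interaction and number set. Probe sets were kept where a joint F test of the 3 interactions with number set had p above 0.15. P values were adjusted by Benjamini-Hochberg over all kept probe sets of a time point and contrast. The averaged effect was fitted on 93 arrays without that filter. The moderated test stands in place of the ordinary one of the methods. P values set a mean difference against the spread between animals within groups. Calculations were tested on simulated data. Figures used matplotlib 3.10.9 in Python 3.11.15, and promoter windows came from RefSeq (GRCm38.p6), with 7 of 10 member genes matched.

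Named were all member probe sets, called genes of the list, the 2 largest MAM effects of a role, and the 3 most alike genes (in part). Members, lists and rules were chosen with earlier results of these data known. No 2 arrays held identical values. Alternatives were leaving out the laboratory filter, filtering on each interaction, the ordinary linear model, array weights, cyclic loess normalization, no fold threshold, an expression filter, the RNA index as a covariate, each number set alone, leaving out each array and including the array left out.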

Additional observations from a re-analysis of the deposited data

Results flagged for a closer look

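Among 176 groups of 5 or 6 animals tested over 11 kinase probe sets, 10 held 1 animal far from the rest, where chance gives about 1 in 20. Low animals on Camk1 were 1 animal of Mgmt-/- vehicle at 168 hr on 1417604_at (7.139, the others 7.658 to 7.936) and 1 animal of wt vehicle at 168 hr on 1417605_s_at (7.954, the others 8.156 to 8.269). On Camk2a 1442707_at, 1 animal of Mgmt-/- vehicle at 48 hr was high (8.883, the others 7.301 to 7.848), as was 1 animal of Mgmt-/- MAM at 48 hr (7.913, the others 7.426 to 7.601). On Camk2d 1422659_at, 1 animal of Mgmt-/- vehicle (7.389, the others 7.709 to 7.889) and 1 animal of Mgmt-/- MAM (7.124, the others 7.714 to 7.883) were low at 24 hr. 1 animal of Mgmt-/- MAM at 48 hr was low on Camk2d 1427763_a_at (6.246, the others 7.024 to 7.154). Camk4 1441974_at was low in 1 animal of wt vehicle at 6 hr (7.219, the others 7.973 to 8.417) and in 1 animal of wt vehicle at 48 hr (6.745, the others 7.601 to 7.773). Camkk2 1424475_at was high in 1 animal of wt MAM at 24 hr (9.215, the others 8.381 to 8.617).

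At 48 hr the MAM effect differed between the genotypes by the limma interaction term for Camk1d 1426389_at (-1.901) and Camk4 1441974_at (-1.423). On the Mgmt-/- MAM array at 168 hr that entered no comparison, the median of the liver genes was 13.67, against at most 6.698 on the other arrays.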

How the results depend on the processing

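No paired analysis was possible because the animal numbers are unique and no groups share a replicate number. The count of kinase calls after MAM in Mgmt-/- brain was 3, and it was 6 without the laboratory filter, 5 with array weights, 6 among probe sets above the median level, 7 in number set 1 alone and 18 in set 2 alone (2 to 4 with 1 array left out). In wt brain it was 0, and 1 in set 2 alone (0 to 0 with 1 array left out). The interaction count of 2 became 1 with a filter on each interaction, in the ordinary linear model, with the RNA index as a covariate and in set 1 alone, and 4 with array weights (0 to 4 with 1 array left out). The genotype counts were 6 in vehicle animals (15 without the filter, 26 in set 2 alone, 5 to 7 with 1 array left out) and 15 after MAM (34, 42 and 12 to 17). The list around the kinases had 8 calls (13 without the filter, 70 in set 2 alone, 7 to 10 with 1 array left out). The averaged effect kept 3 calls with any 1 array left out. With the index as a covariate, 15 of the 26 kinase calls were lost, and Camk4 1426167_a_at between genotypes after MAM at 6 hr reversed to 0.00738. In set 1 alone 18 of the 26 were lost and in set 2 alone 5. With a filter on each interaction with number set, 9 of the 26 were lost. MAM minus vehicle in the RNA index from Gapdh alone was 0.0199, -0.00703 and 0.0127 in Mgmt-/- brain at 6, 24 and 48 hr (0.378, 0.298 and 0.222 from beta-actin alone), and 0.0794 in wt brain at 24 hr, while from beta-actin alone it was 0.0467 at 24 hr and 0.0323 at 168 hr in wt brain. With 1 array left out the index difference ran from 0.175 to 0.216, 0.12 to 0.17, 0.0964 to 0.136 and -0.051 to 0.016 in Mgmt-/- brain at the 4 times, and from 0.0397 to 0.0844, 0.046 to 0.0726, -0.0138 to 0.0293 and 0.0434 to 0.0811 in wt brain. The cause of these changes was not tested. Groups of 5 or 6 arrays limit the precision.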
